A study of Mus musculus with 11 samples.

Results

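The genes described here are 9 members of the LIF signalling branch: the receptor subunits Lifr and Il6st, the kinase Jak1, the transcription factor Stat3, and 5 genes that STAT3 is known to switch on, Socs3, Gbx2, Pim1, Pim3 and Junb. They were chosen by name, and all 9 were found among the 12588 genes of the bulk table and in each of the 5 single-cell tables. All 11 samples are mouse embryonic stem (ES) cells that received the cytokine LIF, so no library shows the pathway without its ligand. Of these, 6 are bulk libraries of the line Rex1GFPd2 in 2i/LIF, made by Smart-seq2 from about 1000 cells each, with 3 replicates in agarose microgels and 3 on tissue-culture plastic. The other 5 are inDrop libraries, a droplet method that counts transcripts by unique molecular identifiers (UMIs), with 1 library per condition. E14 wild-type cells gave 3 of these: a library from plastic with serum/LIF, another from plastic with 2i/LIF, and a gel library (agarose microgels) with serum/LIF. The remaining libraries hold cells whose genotype is given as PGHIGH or PGLOW, with plakoglobin (Jup) driven by the CAG promoter, on plastic in serum/LIF. Their parent line and the number of clones behind each are not given in the sources used here. The medium 2i/LIF adds inhibitors of MEK and GSK3 to LIF. It holds ES cells in the naive state, whereas in serum/LIF cells drift between naive and more advanced states.

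LIF binds LIFR, which pairs with gp130, the product of Il6st. Kinases of the JAK family bound to this receptor phosphorylate STAT3, which enters the nucleus and activates genes that sustain self-renewal. Socs3 encodes an inhibitor that binds gp130 and JAK and so closes a negative feedback loop, Pim1 and Pim3 encode serine/threonine kinases, and Gbx2 and Junb encode a homeobox and an AP-1 transcription factor. RNA levels show neither phosphorylation of STAT3 nor its binding to DNA.

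The promoters are shown because the targets share an activator that binds a spaced palindrome, TTCNNNGAA, which reads alike on both strands. All 9 members had RefSeq promoter windows (GRCm38.p6), 11 windows in all, searched over the 250 bases before the start. The palindrome was found in 1 of them, that of Socs3, and in 2306 of 32851 windows of all genes (7.02%). Its first base lay 154 bases before the RefSeq start. Below, the stretch of the Socs3 window that no annotated exon covers, with the match TTCTTAGAA in capitals, is set beside 2 windows that hold no match: that of Stat3, the activator, and that of Junb, the member whose single-cell levels ranged most widely. They lie at chr11:117969452-117969616, chr11:100939541-100939790 and chr8:84978749-84978998, all on the minus strand, and are written 5′ to 3′ on the strand of the gene. In the GENCODE annotation the Socs3 gene body (chr11:117966079-117970047) begins upstream of the RefSeq start, so the Socs3 stretch lies inside it, between exons. The search covers these letters in these windows only.
Socs3: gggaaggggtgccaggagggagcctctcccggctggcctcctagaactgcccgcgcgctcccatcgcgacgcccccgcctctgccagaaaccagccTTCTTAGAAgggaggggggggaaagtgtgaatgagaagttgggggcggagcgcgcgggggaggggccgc
Stat3: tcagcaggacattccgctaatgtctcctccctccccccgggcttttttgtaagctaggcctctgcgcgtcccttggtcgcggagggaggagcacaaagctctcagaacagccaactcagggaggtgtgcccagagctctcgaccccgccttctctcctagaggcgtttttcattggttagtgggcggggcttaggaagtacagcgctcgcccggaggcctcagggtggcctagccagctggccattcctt
Junb: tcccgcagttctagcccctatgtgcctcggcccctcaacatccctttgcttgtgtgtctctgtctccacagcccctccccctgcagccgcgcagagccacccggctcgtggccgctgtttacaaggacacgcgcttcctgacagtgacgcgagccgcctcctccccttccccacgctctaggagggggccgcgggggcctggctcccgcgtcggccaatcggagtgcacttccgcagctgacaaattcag

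Depth differed between the libraries. The bulk libraries held 637235 to 2583256 reads, with plastic replicates 1 and 2 the deepest. The single-cell libraries held 725 cells (wild type, serum/LIF), 2889 cells (2i/LIF), 112 cells (gel), 1200 cells (labelled JupLow) and 2153 cells (labelled JupHigh), counting barcodes with at least 1000 UMIs, and no cell barcode was shared between any pair of libraries. Levels are given as CPM, the UMIs of a gene scaled to a fixed library total (counts per 1e6). Jup itself, the gene named in the labels JupLow and JupHigh, was at 37.9 CPM (31.1 to 45.7) and 47.8 CPM (41.5 to 54.8) in those libraries, with wild-type serum/LIF cells at 36.7 CPM (28.8 to 46.0), so the intervals of all 3 overlap. Of 10 ES cell markers, all had UMIs in every single-cell library except Sox2, which has no column in the wild-type serum/LIF table. That table also stood apart from the rest at genes that share their position with another gene. Among genes whose annotated body overlaps another gene, 5.71% were at least 8-fold lower and 6.38% at least 8-fold higher in it than in the library labelled JupLow, against 0.172% and 0.747% of genes with no overlap. The gel table showed no such split against the JupLow table, at 0.191% and 0.0478% of overlapping genes. The reason was not tested, and ratios of such genes to the wild-type serum/LIF library may carry this difference. The shares of all genes given below for comparisons with that library may carry it too. Jak1, Stat3, Gbx2, Pim1 and Junb overlap another gene, whereas Lifr, Il6st, Socs3 and Pim3 do not. Wild-type serum/LIF cells also carried primitive endoderm markers at 2102 CPM summed over 12 genes, against 263 to 581 CPM in the other 4 libraries. Ratios to that library are therefore also given without cells holding 3 or more endoderm UMIs, an alternative chosen after seeing the data.

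In bulk, cells in gels had more RNA of Stat3 and of 3 of its targets than cells on plastic, while the receptor and kinase genes did not pass the test. With limma and Benjamini-Hochberg adjustment over all 7878 tested genes, 4 of the 8 tested members were called higher in gel (Stat3, Socs3, Pim3 and Pim1) and 0 lower. Over all tested genes 18.3% were called higher and 18.6% lower, and 36.9% in either direction. The median log2 fold change was 0.66 over the 8 members and -0.02 over all tested genes. Values below are the deposited ones, reads scaled by 1 factor per library. Each fold change was taken on log2(value + 0.5), which understates changes of low genes. The labels do not say that replicates came from separate cultures, so the p-values measure the spread between these libraries. In bulk samples a change in the cells that express a gene and a change in RNA per cell cannot be told apart.

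Lifr (chr15:7090614-7197489, plus strand), the ligand-binding receptor subunit, measured 30.5, 45.4 and 38.5 in gel replicates 1 to 3 and 56.5, 34.4 and 63.8 on plastic. The groups overlapped, since plastic replicate 2 lay among the gel values. The log2 fold change was -0.40 ± 0.23 (SE, n = 3 per group; limma adjusted p = 0.174). Without plastic replicate 2 it was -0.67, with a limma adjusted p of 0.0312. Il6st (chr13:112464070-112510086, plus strand), the signalling subunit shared with other cytokines of the IL-6 family, measured 47.4, 44.2 and 38.5 in gel and 34.5, 21.1 and 44.0 on plastic. Its groups overlapped through plastic replicate 3, and its log2 fold change of 0.44 ± 0.24 did not pass (limma adjusted p = 0.158). Without plastic replicate 3 it was 0.67, with a limma adjusted p of 0.0469. Jak1 (chr4:101152367-101265282, minus strand), the kinase, spanned 19.6 to 41.2 in gel and 29.7 to 38.0 on plastic, so that its plastic values lay inside the gel range. Its log2 fold change was -0.12 ± 0.25 (limma adjusted p = 0.733).

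Stat3 (chr11:100885098-100939540, minus strand) measured 64.3, 57.7 and 54.97 in gel and 42.8, 29.0 and 25.8 on plastic. Every gel value was above every plastic value, as for 24.4% of all tested genes, while for 25.0% every gel value was lower (49.5% in either direction). The mean was 59.0 ± 4.81 (SD, n = 3) in gel against 32.5 ± 9.04 on plastic. The log2 fold change was 0.88 ± 0.21 (limma adjusted p = 0.0027), which is 1.84-fold higher in gel. Leaving out any 1 library kept Stat3 past the threshold, with the highest limma adjusted p at 0.0159.

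Socs3 (chr11:117966079-117970047, minus strand), the feedback inhibitor, had the largest fold change of the tested members. It measured 21.4, 12.3 and 13.7 in gel and 1.25, 4.70 and 3.04 on plastic. The values rest on few reads, 19, 10 and 10 in gel and 3, 12 and 2 on plastic, where plastic replicates 1 and 2 are the deepest libraries. The groups did not overlap, and the mean of 15.8 ± 4.92 in gel stood against 2.99 ± 1.72 on plastic. The log2 fold change was 2.32 ± 0.51 (limma adjusted p = 0.00167), 4.99-fold, and it stayed called without any 1 library (highest limma adjusted p 0.0214). Socs3 had too few reads to be tested when 10 reads were required in all 6 libraries, or when all libraries were thinned to the depth of the shallowest, so its call was not checked at equal depth. In the thinned libraries 2 of 6 tested members were called, Stat3 and Pim3, while Pim1 was not (limma adjusted p = 0.0738), and 32.5% of all 7251 genes tested there were called.

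Of the PIM kinase genes, the members Pim3 and Pim1 were also called higher. Pim2, which is not a member, was not called (log2 fold change -0.53 ± 0.30, limma adjusted p = 0.175). Pim3 (chr15:88862186-88865726, plus strand) was tightly grouped in gel at 54.2, 56.5 and 54.97 and spread on plastic at 27.4, 19.2 and 44.0. All gel values lay above all plastic values, with a log2 fold change of 0.94 ± 0.24 (limma adjusted p = 0.00537), and the call held without any 1 library. Pim1 (chr17:29490753-29496112, plus strand) measured 47.4, 39.3 and 33.0 in gel and 21.6, 23.1 and 33.4 on plastic. Here gel replicate 3 fell just under plastic replicate 3. The log2 fold change of 0.62 ± 0.23 passed narrowly (limma adjusted p = 0.0421). The call was lost when gel replicate 1 or 2 or plastic replicate 1 or 2 was left out, with limma adjusted p-values of 0.0777 to 0.161, and also under DESeq2 (adjusted p = 0.0573). Pim1 was called in 9 of 16 alternative settings.

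The transcription factor targets were measured less well. Gbx2 (chr1:89927956-89931179, minus strand) measured 21.4, 25.8 and 12.4 in gel and 12.1, 10.2 and 12.1 on plastic. The groups did not overlap, but gel replicate 3 lay close to plastic, and the log2 fold change of 0.71 ± 0.33 did not pass (limma adjusted p = 0.0926). Without gel replicate 3 it was 1.01 with a limma adjusted p of 0.0202, and edgeR's quasi-likelihood test on all libraries gave an adjusted p of 0.0253. An antisense gene, D130058E05Rik, shares 43.5% of the exon bases of Gbx2, and whether counting used strand is not given in the sources used here, so its reads may be split or mixed. The same limit holds for Pim1, with 14.5% of its exon bases shared with Gm26885, and for Junb, with 7.52% shared with Prdx2. Both of these genes lie on the opposite strand. For Stat3 the share was 0.756%, with Stat5a. Junb (chr8:84974484-84978718, minus strand) had 5, 5 and 3 reads in gel and 6, 2 and 1 on plastic, too few to enter the test. Its values were 5.64, 6.14 and 4.12 in gel and 2.49, 0.783 and 1.52 on plastic, without overlap. With no filter on low values the log2 fold change was 1.53 ± 0.60 (limma adjusted p = 0.0728).

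**Figure D1:**
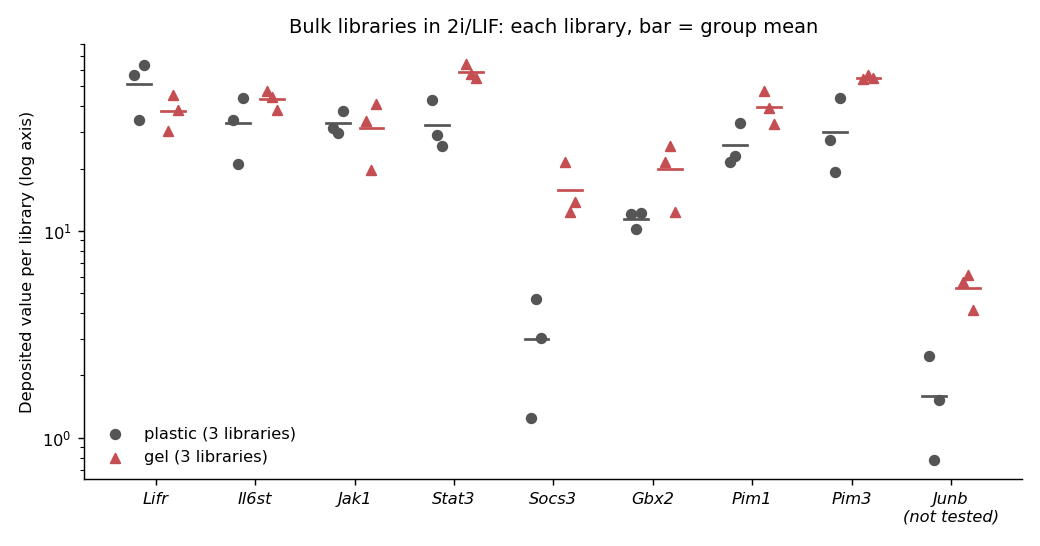
Deposited value of each member (log axis) in each of 3 plastic (grey circles) and 3 gel (red triangles) libraries in 2i/LIF, with a bar at each group mean. The gel values of Stat3, Socs3, Gbx2, Pim3 and Junb all lie above the plastic ones, while those of Lifr, Il6st, Jak1 and Pim1 overlap.

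Per kilobase of annotated exon, the order of the members on plastic ran from Pim3 (12.4 ± 5.21 units per kb, SD, n = 3) through Pim1 (7.74 ± 1.91), Gbx2 (5.26 ± 0.51), Lifr (4.79 ± 1.42), Jak1 (4.58 ± 0.60), Stat3 (3.41 ± 0.95) and Il6st (2.99 ± 1.04) to Socs3 (1.04 ± 0.60) and Junb (0.695 ± 0.373). The plastic ranges of neighbours in this order overlapped, except for Pim1 (6.43 to 9.93) and Gbx2 (4.67 to 5.58) and for Il6st (1.90 to 3.97) and Socs3 (0.431 to 1.62). In gel Pim3 stood at 22.7 ± 0.48 and Socs3 at 5.47 ± 1.70 units per kb, with Socs3 now between Stat3 (6.19 ± 0.51) and Jak1 (4.37 ± 1.52).

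Other genes of the pathway were called about as often as all genes. Of 41 further ligands, receptors, kinases, STATs and regulators, 33 were listed and 19 tested. In gel 3 rose (Grb2, Sos1, Pias4) and 3 fell (Ptpn6, Pias1, Pias2), where 18.3% of all tested genes rose and 18.6% fell, with a median log2 fold change of -0.15. The called genes with the largest changes were Ptpn6, the phosphatase SHP-1 that dampens cytokine receptors (log2 fold change -1.37 ± 0.18, limma adjusted p = 1.99e-05), Pias1, named as an inhibitor of activated STAT (-1.15 ± 0.22, limma adjusted p = 0.000512), and Grb2, the adaptor that links receptors to RAS (1.10 ± 0.29, limma adjusted p = 0.00719). Stat6, the only other STAT gene with enough reads to be tested, measured 49.0 ± 7.46 in gel and 43.8 ± 5.68 on plastic (limma adjusted p = 0.538). Among 25 other genes reported to respond to STAT3 or LIF, 16 were tested, of which 9 rose and 2 fell, against the same 18.3% and 18.6%, with a median of 0.51. The largest changes were those of the naive factors Klf2 (2.08 ± 0.20, limma adjusted p = 9.41e-07), Klf4 (1.84 ± 0.19, limma adjusted p = 1.72e-06) and Esrrb (1.55 ± 0.14, limma adjusted p = 4.88e-07). Klf5, Bcl3, Mcl1, Smad7, Tfcp2l1 and Birc5 rose as well, while Sall4 (-0.80) and Nanog (-0.34) fell. Of these 25 genes, 7 also belong to the list of 14 naive genes, of which 7 rose and 3 fell.

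Immediate early genes, which cells can induce within minutes of handling, were followed because Junb, Socs3 and the PIM genes behave that way in many cells. Of 17, only 5 were tested, of which 3 rose in gel, Nr4a1 (log2 fold change 1.34 ± 0.34, limma adjusted p = 0.00461), Ier2 (1.09 ± 0.17, limma adjusted p = 0.00011) and Klf6 (0.72 ± 0.24, limma adjusted p = 0.0248), and 1 fell (Btg2, -0.58), where 18.3% of all tested genes rose and 18.6% fell. The summed value of these 5 genes was 191 to 246 in gel and 157 to 164 on plastic. Their part in the higher levels of Socs3, Pim1 and Pim3 was not tested.

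In the single cells, comparisons have 1 library on each side, so no test was possible and intervals (95%, exact) cover counting error only. A member is called higher or lower here where the interval of its log2 ratio excludes 0. The share of all genes at 20 CPM or more that meet this rule is large in every comparison and is given with the counts. The members were seen thinly. After thinning each cell to 1000 UMIs, 33.6% (2i/LIF) to 44.4% (JupHigh) of cells held a UMI of any member, and without thinning 51.8% (gel) to 66.9% (wild type in serum/LIF). For single members the thinned shares ran from 0.727% (Gbx2 in 2i/LIF) to 14.7% (Pim1 in JupLow). Barcodes under 500 UMIs, too shallow to be taken as cells, also carried the members, at 0.412 to 2.03 times the CPM of the cells over 36 values. Lifr in JupLow stood lowest against its cells (13.6 against 33.0 CPM) and Stat3 in gel highest (60.3 against 29.6 CPM, from 11 and 7 UMIs). The 2i/LIF table holds 1 such barcode and gives no such value.

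**Figure D2:**
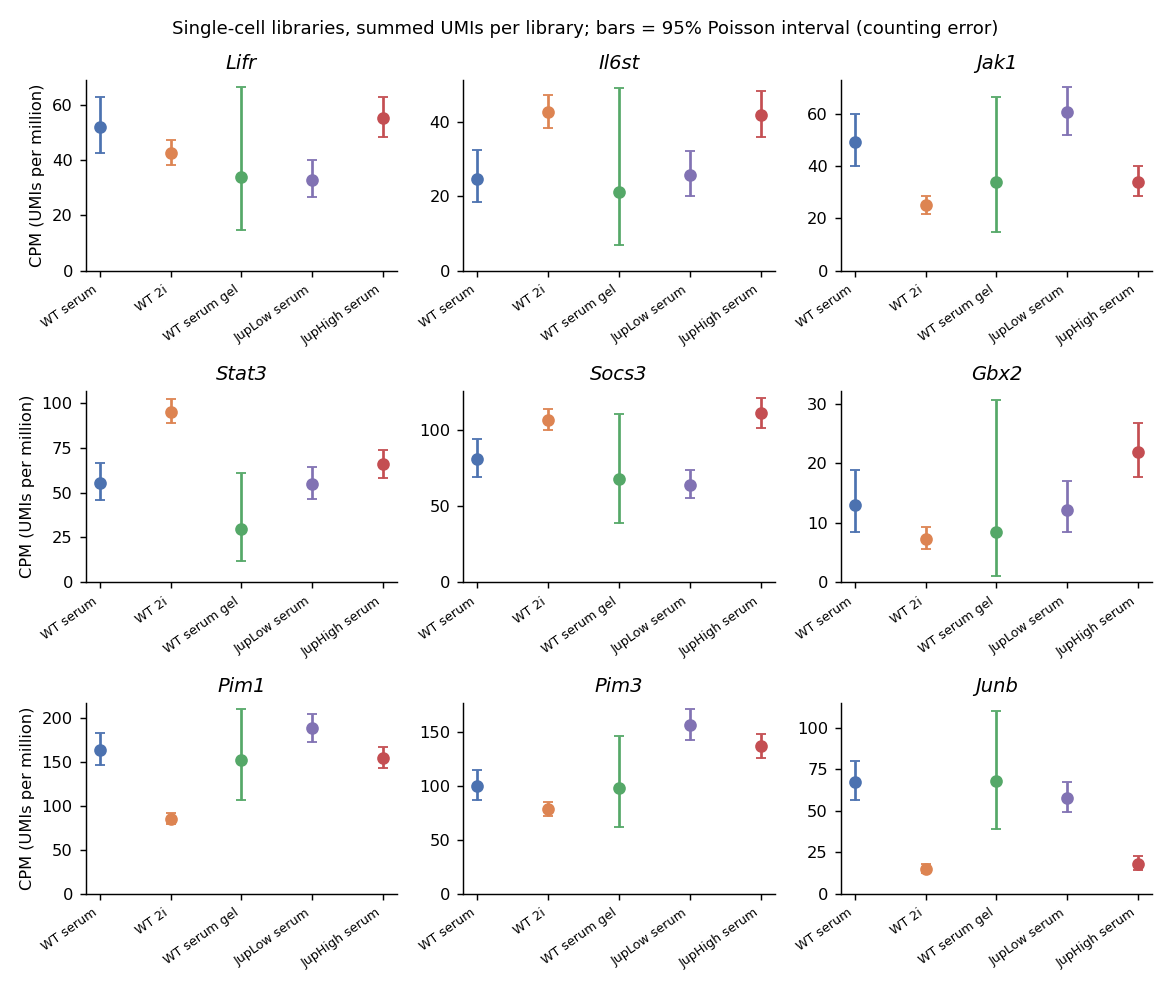
Level of each member in each single-cell library as CPM of summed UMIs, with 95% Poisson intervals; each panel starts at 0. Junb is low in the 2i/LIF and JupHigh libraries (15.0 and 18.1 CPM) and between 57.7 and 67.7 CPM in the other 3.

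The change of medium from serum/LIF to 2i/LIF went with more Stat3, Il6st and Socs3 RNA and less Jak1, Pim1, Pim3 and Junb. Of the 8 members at 20 CPM or more in either library, 3 were higher and 4 lower (7 either). Of all genes 31.4% were higher, 34.2% lower and 65.6% either. Whether so few members differ from that background was not tested. The ratios of Jak1, Stat3, Gbx2, Pim1 and Junb may carry the difference between tables at overlapping genes. The median log2 ratio of all 9 members was -0.35, and over all genes -0.02. Stat3 stood at 55.5 CPM (interval 45.7 to 66.8) in serum/LIF and 95.2 CPM (88.7 to 102) in 2i/LIF, a log2 ratio of 0.78 (0.49 to 1.08). Il6st went from 24.8 to 42.7 CPM, a log2 ratio of 0.79 (0.36 to 1.24), and Socs3 from 80.8 to 106 CPM (0.40, 0.16 to 0.65). Lifr, at 52.0 and 42.7 CPM, had an interval that includes 0 (-0.28, -0.60 to 0.04), but was lower with every deposited barcode (-0.30, -0.53 to -0.07) and without barcodes above 3 times the median depth (-0.40, -0.72 to -0.06). Jak1 was lower, at 49.6 and 25.0 CPM (-0.99, -1.34 to -0.63).

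The targets other than Socs3 were lower in 2i/LIF. Pim1 stood at 164 CPM in serum/LIF and 85.5 CPM in 2i/LIF (log2 ratio -0.94, -1.13 to -0.75), and Pim3 at 99.6 and 78.2 CPM (-0.35, -0.58 to -0.11). Gbx2 rested on 26 and 60 UMIs, 12.9 and 7.24 CPM (-0.83, -1.52 to -0.11). Junb differed most of all members, at 67.4 CPM in serum/LIF and 15.0 CPM in 2i/LIF (-2.17, -2.53 to -1.81), 4.50-fold lower. It was the only member past 2-fold, a size that 11.6% of all genes reached upward and 15.3% downward (26.9% in all). That count was 3 with a minimum of 500 UMIs or every deposited barcode, where Jak1 (-1.13 with the minimum) and Gbx2 (-1.08) passed, 3 with TMM factors, where Il6st (1.04) and Stat3 (1.03) passed, and 4 without endoderm-rich cells, where Il6st, Stat3 and Pim1 passed. The share of all genes past 2-fold is given for the reported setting only, so these other counts have no background to be read against. TMM factors, which shift every ratio of this comparison up by 0.25, left Pim3 (-0.10, -0.33 to 0.14) and Gbx2 (-0.58, -1.26 to 0.15) with intervals that include 0, as did a minimum of 2000 UMIs (-0.22, -0.48 to 0.04, and -0.70, -1.50 to 0.15). Markers of cell state moved with this comparison: 14 naive genes stood at 2909 CPM in 2i/LIF against 726 CPM in serum/LIF (12 of 13 at 20 CPM or more higher, 1 lower) and 11 primed genes at 271 against 1211 CPM (8 of 8 lower). Immediate early genes were low in the same library, at 289 CPM summed over 17 genes in 2i/LIF against 710 CPM in serum/LIF, and 8 of the 10 at 20 CPM or more were lower, against 34.2% of all genes. Jun, Dusp1, Btg2, Hspa1b, Klf6, Myc and Zfp36 were past 2-fold lower. The part of these lists in the members' levels was not tested.

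Endoderm cells of the serum/LIF library bear on these ratios. In that library 85 of 725 cells held 3 or more endoderm UMIs after thinning, and per 1000 such cells there were 176 UMIs of Stat3 (interval 98.8 to 291), against 37.5 (24.0 to 55.8) per 1000 of the other 640 cells. Lifr stood at 153 (81.4 to 262) against 29.7 (17.9 to 46.4). Pim1 went the other way, at 70.6 (25.9 to 154) against 184 (153 to 221). The median depth before thinning was 2306 and 2365.5 UMIs. Without such cells in any library, the log2 ratio of 2i/LIF over serum/LIF became 1.13 (0.79 to 1.49) for Stat3 and 0.42 (0.01 to 0.85) for Lifr, whose sign had been negative. Il6st (1.03) and Socs3 (0.54) were higher, and Jak1 (-0.85), Gbx2 (-0.95), Pim1 (-1.05), Pim3 (-0.30) and Junb (-2.10) lower, each with an interval that excludes 0. In the library labelled JupLow, 50 cells held as many endoderm UMIs, with 3 UMIs of Stat3 (12.4 to 175 per 1000 cells) and 1 UMI of Lifr (0.5 to 111 per 1000 cells). Those intervals overlap the ones of the wild-type endoderm-rich cells.

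**Figure D3:**
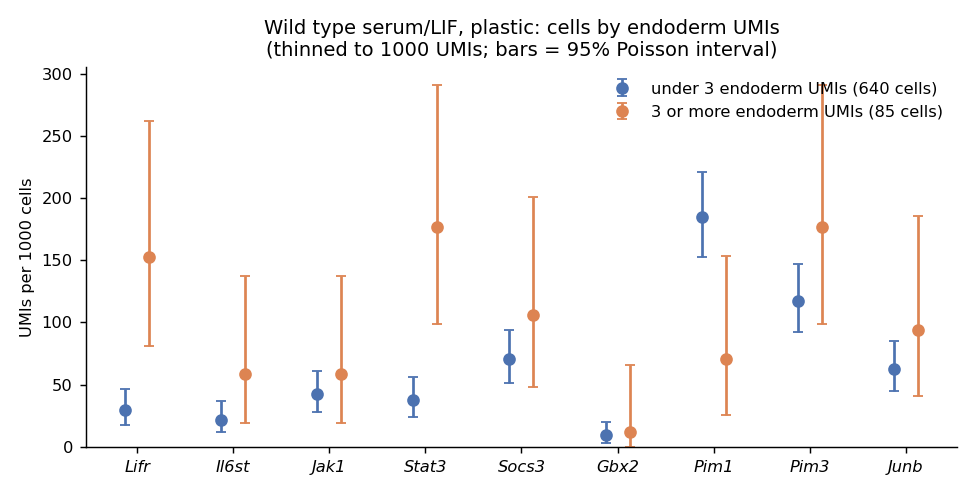
UMIs of each member per 1000 cells in the wild-type serum/LIF library after thinning to 1000 UMIs, in 640 cells with under 3 endoderm UMIs (blue) and 85 cells with 3 or more (orange), with 95% Poisson intervals. Stat3 and Lifr lie higher and Pim1 lower in the endoderm-rich cells.

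In gels in serum/LIF, no member had an interval that excludes 0 against plastic, with the same limit for genes that overlap another. With a minimum of 500 UMIs Jak1 did, at -0.84 (-1.78 to -0.03), and with every deposited barcode Pim3, at -0.43 (-0.88 to -0.02). Of 8 members at 20 CPM or more, 0 were higher and 0 lower, against 11.1% and 11.6% of all genes (22.7% either). Past 2-fold, 6.92% of all genes were higher, 9.32% lower and 16.2% in all. The shares of all genes may carry the difference between tables. Of overlapping genes, 6.47% were at least 8-fold lower in gel than on plastic and 6.43% higher. Of genes with no overlap, 0.987% were lower and 0.219% higher. The gel library held 112 cells, where 1 UMI is worth 4.23 CPM. Stat3 rested on 7 UMIs, 29.6 CPM (11.9 to 61.1), with a log2 ratio of -0.91 (-2.25 to 0.19). That ratio was -0.23 with a minimum of 500 UMIs, -0.38 with 2000 and -0.51 (-1.88 to 0.60) without endoderm-rich cells, a step that took Lifr from -0.62 to -0.08 (-1.46 to 1.06) and left 0 within every member's interval. Socs3 rested on 16 UMIs, 67.7 CPM (-0.25, -1.09 to 0.49), Pim3 on 23 (-0.03, -0.72 to 0.59) and Pim1 on 36 (-0.11, -0.64 to 0.39). The upper bound lay under a 2-fold higher level for 7 of the 9 members, all but Il6st and Gbx2, while the lower bound lay past a 2-fold lower level for 6. Junb was at 67.7 CPM in gel and 67.4 CPM on plastic (0.01, -0.84 to 0.76).

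The libraries labelled JupLow and JupHigh share the wild-type control, so their ratios to it are given side by side, again with that limit for Jak1, Stat3, Gbx2, Pim1 and Junb. In JupLow, 2 of 8 members were higher (Pim3 and Pim1) and 2 lower (Lifr and Socs3), against 20.3% and 22.0% of all genes (42.4% either, with 6.02% past 2-fold higher, 7.67% lower and 13.7% in all). In JupHigh, 4 of 9 were higher (Il6st, Socs3, Gbx2 and Pim3) and 2 lower (Jak1 and Junb), against 20.4% and 39.6% (60.0% either). Junb was the only member past 2-fold in either line, in JupHigh at 18.1 CPM (-1.90, -2.32 to -1.49), where 7.94% of all genes were past 2-fold higher, 15.0% lower and 22.9% in all. With TMM factors Il6st (1.07) and Gbx2 (1.07) passed 2-fold in JupHigh too, and Il6st (1.02) without endoderm-rich cells, while in JupLow Lifr passed it (-1.12) with every deposited barcode. The shares of all genes past 2-fold are not given for these settings. Socs3 stood at 63.9 CPM in JupLow (log2 ratio -0.34, -0.65 to -0.02) and 111 CPM in JupHigh (0.45, 0.19 to 0.72). Pim3 was above wild type in both, at 156 CPM (0.65, 0.40 to 0.89) and 136 CPM (0.45, 0.22 to 0.69). Lifr lay below wild type in JupLow at 33.0 CPM (-0.66, -1.07 to -0.24), but without cells rich in endoderm UMIs that ratio was 0.03 (-0.46 to 0.54). The same step raised Lifr in JupHigh from 0.09 (-0.25 to 0.44) to 0.80 (0.38 to 1.24) and Stat3 from 0.25 (-0.07 to 0.58) to 0.59 (0.22 to 0.97). It also brought 0 into the intervals of Socs3 (-0.16, -0.49 to 0.18) and Pim1 (0.11, -0.09 to 0.32) in JupLow and of Jak1 (-0.39, -0.79 to 0.02) and Gbx2 (0.64, lower bound just under 0, upper bound 1.34) in JupHigh. TMM factors did the same for Socs3 in JupLow (-0.24, -0.55 to 0.07) and Jak1 in JupHigh (-0.23, -0.61 to 0.15), a minimum of 2000 UMIs for Socs3 in JupLow (-0.24, -0.57 to 0.10), and leaving out barcodes above 3 times the median depth for Pim1 in JupLow (0.14, -0.07 to 0.34). Other settings moved 0 out of an interval. In JupLow, Jak1 was higher with TMM factors (0.39), and Stat3 (-0.26) and Gbx2 (-0.50) were lower with every deposited barcode. In JupHigh, Lifr (0.40), Stat3 (0.55) and Pim1 (0.23) were higher with TMM factors, and Stat3 (0.31) with a minimum of 500 UMIs. Marker lists moved in JupHigh over wild type as well, where 20.4% of all genes were higher and 39.6% lower. Of naive genes 12 of 13 were higher and 0 lower, of primed genes 6 of 8 lower and 1 higher, and of immediate early genes 8 of 10 lower and 2 higher. In JupLow over wild type, with 20.3% of all genes higher and 22.0% lower, 2 of 10 naive genes were higher and 1 lower. There 5 of 8 primed genes were higher and 1 lower, and 5 of 11 immediate early genes higher and 0 lower. Their part in the members' levels was not tested.

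The comparison of JupHigh with JupLow does not use the wild-type table. Between these libraries 0.943% of overlapping genes were at least 8-fold lower in JupHigh and 0.199% higher, against 0.821% and 0.293% of genes with no overlap. There 4 of 9 members were higher in JupHigh and 4 lower, against 16.3% of all genes higher and 35.6% lower (51.9% either). Both receptor genes were higher, Lifr at 55.4 against 33.0 CPM (log2 ratio 0.75, 0.40 to 1.11) and Il6st at 42.0 against 25.7 CPM (0.71, 0.31 to 1.12). Socs3 was higher at 111 against 63.9 CPM (0.79, 0.54 to 1.04), and Gbx2 at 21.8 against 12.2 CPM (0.84, 0.27 to 1.45). Stat3, at 65.9 and 54.9 CPM, had an interval that includes 0 (0.26, -0.02 to 0.55), though not with TMM factors (0.48, 0.19 to 0.77), a minimum of 500 UMIs (0.45), every deposited barcode (0.48) or totals without mitochondrial and ribosomal protein genes (0.32). Jak1 was lower at 34.1 against 60.8 CPM (-0.83, -1.16 to -0.51). Pim1 (-0.28, -0.45 to -0.12) and Pim3 (-0.19, -0.37 to -0.01) were slightly lower, and with TMM factors, which move every log2 ratio of this comparison up by 0.21, they stood at -0.07 and 0.02. The interval of Pim3 also held 0 with a minimum of 500 (-0.10) or 2000 UMIs (-0.15), with every deposited barcode and with totals without mitochondrial and ribosomal protein genes (-0.14), and that of Pim1 with every deposited barcode (-0.12). Junb was lower, at 18.1 against 57.7 CPM (-1.67, -2.08 to -1.28), 3.19-fold. Past 2-fold, 2.63% of all genes were higher, 8.44% lower and 11.1% in all. Junb alone of the members passed, whereas 2 to 4 members did with TMM factors (Socs3, 1.00, and Gbx2, 1.05), a minimum of 500 UMIs (Gbx2, 1.01) or 2000 UMIs (Jak1, -1.06), or every deposited barcode (Lifr, 1.19, Il6st, 1.08, and Gbx2, 1.03). Those shares of all genes hold for the reported setting only, so the counts under other settings have no background here. Naive genes stood at 3025 CPM in JupHigh against 937 CPM in JupLow (13 of 13 higher) and primed genes at 857 against 1455 CPM (6 of 8 lower, 2 higher). Immediate early genes stood at 400 CPM in JupHigh and 917 CPM in JupLow, with 10 of 11 lower against 35.6% of all genes. Jun, Jund, Ier5, Dusp1, Btg2, Hspa1b, Klf6 and Zfp36 were past 2-fold lower. The part of these lists in the members' levels was not tested.

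**Figure D4:**
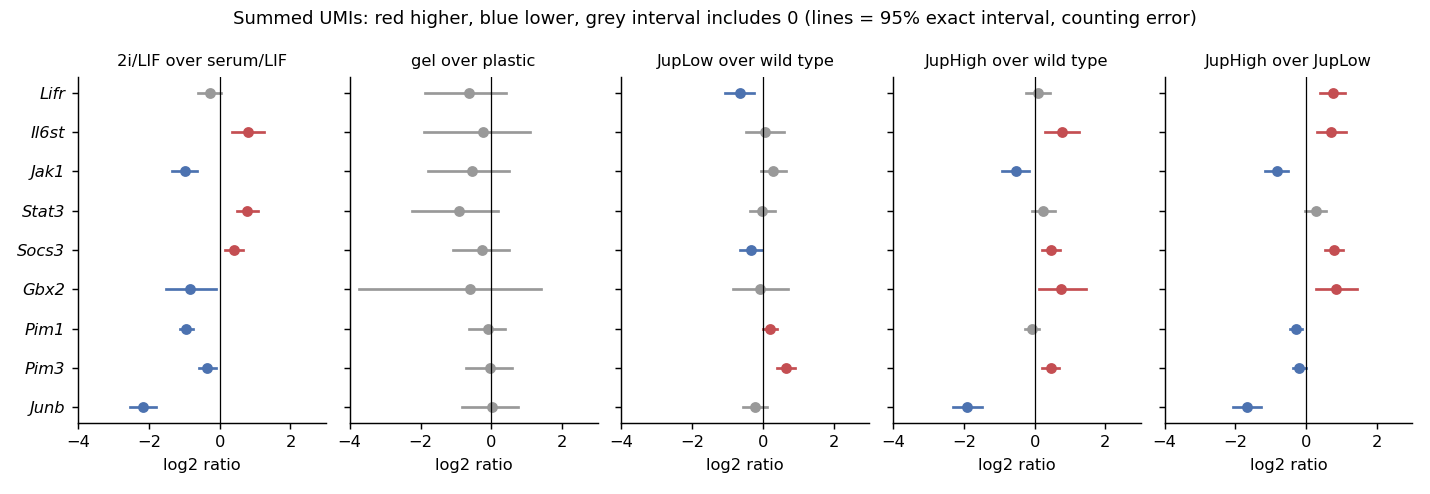
Log2 ratio of summed UMIs for each member in 5 comparisons of single-cell libraries, with 95% exact intervals; red is above 0, blue below 0 and grey includes 0. Junb lies near -2 in the 2i/LIF and JupHigh comparisons, and all gel intervals include 0.

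Other LIF and STAT3 genes set the members in context. Overlap with another gene is given here for the 9 members only. Ratios of list genes to the wild-type serum/LIF library, here and above, may therefore carry the difference between tables too. Of 41 pathway genes, 19 reached 20 CPM in the 2i/LIF comparison, with 4 higher and 7 lower and a median log2 ratio of 0.05, where 31.4% of all genes were higher and 34.2% lower. Past 2-fold were Stat4 (22.0 against 9.91 CPM), Socs4 (15.7 against 35.7 CPM) and the phosphatase gene Ptpn1 (24.0 against 53.5 CPM). In JupHigh over JupLow none of 17 passed 2-fold, with 4 higher and 8 lower, where 16.3% of all genes were higher and 35.6% lower. Of the further STAT3 or LIF targets, 9 of 19 were higher and 10 lower in 2i/LIF (31.4% and 34.2% of all genes), with a median of -0.16. The naive factors Tfcp2l1 (256 against 21.8 CPM), Klf2 (500 against 90.2 CPM), Klf4 (238 against 66.9 CPM), Esrrb (318 against 66.4 CPM) and Nanog (539 against 82.8 CPM) were higher. Bcl3, Ccnd1 and Fgf4 were also past 2-fold higher. Cebpd (0.845 against 26.8 CPM), Ier3 (3.98 against 21.8 CPM), Zfp36 (4.95 against 20.8 CPM), Pim2 (12.4 against 102 CPM), Myc (19.1 against 68.4 CPM) and Hif1a (39.7 against 88.2 CPM) were lower. In JupHigh over JupLow, 10 of 19 targets were higher and 7 lower (16.3% and 35.6% of all genes). Past 2-fold were Klf4, Tfcp2l1, Nanog, Esrrb and Klf2 upward and Cebpb, Zfp36 and Pim2 downward, Pim2 at 23.9 against 112 CPM. Pim2, the third PIM kinase gene, was in gel 2.83-fold above plastic (288 against 102 CPM), where Pim1 and Pim3 had intervals that include 0. In the bulk libraries, in 2i/LIF, its gel mean was the lower one, 13.4 against 19.4, without a call (limma adjusted p = 0.175). Also past 2-fold in gel were Smad7 (50.8 against 17.8 CPM) and, from 1 UMI, Socs4 (-3.08, -8.40 to -0.55). In JupLow over wild type, 8 of 20 targets were higher and 1 lower (20.3% and 22.0% of all genes). Of these, Ccnd1 (191 against 49.1 CPM) and Klf2 (191 against 90.2 CPM) were past 2-fold higher. In JupHigh over wild type, 13 of 20 targets were higher and 5 lower (20.4% and 39.6% of all genes). Past 2-fold were Klf4, Tfcp2l1, Bcl3, Ccnd1, Nanog, Esrrb and Klf2 upward and Ier3, Cebpd, Zfp36 and Pim2 downward. The immediate early list is not a list of targets, but 3 of its genes, Fos, Myc and Zfp36, stand in both and count in both. Of its other genes, Jun, Jund, Dusp1, Btg2, Hspa1b and Klf6 were also past 2-fold lower. Of all genes, 15.0% were.

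Cells of 1 library also differed among themselves in the members. Cells were split by their UMIs of 14 naive genes, none of them a member, after thinning to 1000 UMIs. In 2i/LIF, Socs3 stood at 36.6 UMIs per 1000 cells in 383 cells with 0 naive UMIs, 78.2 (62.7 to 96.4) in 1125 cells with 1 or 2, and 133 (115 to 154) in 1381 cells with 3 or more. Stat3 ran 28.7, 65.8 and 104 over the same classes, and Pim3 31.3, 49.8 and 101. Lifr was level in this library, at 41.8, 40.9 and 47.1. In JupHigh the order was alike for Socs3 (33.6, 84.0 and 129), Stat3 (33.6, 60.2 and 85.0), Pim3 (67.2, 102 and 149) and Pim1 (88.2, 142 and 197), whereas Lifr ran 75.6, 58.9 and 41.2. In JupLow, Socs3 ran 32.5, 77.1 and 95.2, Stat3 46.4, 51.4 and 103, and Pim1 183, 175 and 151. The highest JupLow class held few UMIs, and for each of these genes its interval overlaps that of the lowest class. Members not named for a library are not described there. Lifr differed in order between libraries: it ran 23.2 (13.0 to 38.3), 30.4 and 71.4 (32.7 to 136) in JupLow and 30.0, 57.6 and 85.1 in wild type in serum/LIF, upward where JupHigh ran downward, though the intervals of the lowest and highest classes overlap in all 3 libraries (44.8 to 120 and 30.2 to 54.9 in JupHigh). In the wild-type serum/LIF library the highest class held only 47 cells, with Stat3 at 0 UMIs (interval up to 78.5 per 1000 cells).

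Depth moved with these classes. The median UMIs per cell before thinning were 1673, 2171 and 2850 over the 3 classes in 2i/LIF, 1761.5, 1868 and 1970 in JupHigh, 2064.5, 2285 and 2640 in JupLow, and 2371, 2255 and 2724 in wild type in serum/LIF. The part of depth in the split was not tested. The cells share a library, so the split is a description. No ratio between classes was taken, and overlapping intervals do not show that classes have equal levels.

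Junb had the widest range of log2(CPM + 5) over the 5 libraries, 1.87, and 1.86 without the gel library. The range of Stat3, 1.53, rests on its 7 UMIs in gel: over the other 4 libraries it was 0.74, below those of Jak1 (1.13), Gbx2 (1.13), Pim1 (1.10), Pim3 (0.95) and Socs3 (0.75). Among 4697 genes at 50 CPM or more in their highest library, those nearest to Junb in centred profile were Plekha1 (distance 0.22), Map4k5 (0.27) and the actin gene Actg1 (0.32). Actg1 stood at 785 CPM in 2i/LIF and 897 CPM in JupHigh against 2210 to 2384 CPM in the other 3 libraries. Nearest to Stat3, with the same dependence on gel, were Sun1 (0.16), Clk4 (0.19) and Mto1 (0.20). The ranking rests on 5 libraries with 1 of each condition and gives a likeness only.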

How the data were processed

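The members and gene lists were chosen with earlier results of these data known. The submitters' processing notes name FastQC, STAR, featureCounts, DESeq2 and Scanpy and the builds mm10 and GRCm38, without versions or order. The deposited bulk values are a signal, gene counts divided by 1 factor per library, as judged from the files: 100% of values were whole multiples of 1 read within 0.01 reads. The deposited single-cell values are UMI counts. The bulk test was limma-trend (limma 3.58.1, R 4.3.3; log2(value + 0.5), genes passing edgeR 4.0.16's filter on recovered reads, Benjamini-Hochberg threshold 0.05). edgeR (3158 calls) and DESeq2 1.42.0 (2188) on recovered reads were alternatives to limma's 2906. Single-cell UMIs were summed over barcodes of at least 1000 UMIs, with no doublet caller; ratios took exact conditional binomial intervals. Columns without a gene name were left out, as was 1 truncated row of the gel table. By rule, the list genes named were the 3 largest changes among called genes of each list in bulk and, in single cells, those at 20 CPM or more past 2-fold. The other list genes named, called ones, Stat6 and Pim2 in bulk and Osm and Osmr in single cells, were chosen after their values were seen. Both steps were tested on simulated data. Genes lie on GENCODE M21 (GRCm38).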

Additional observations from a re-analysis of the deposited data

Results flagged for a closer look

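Socs3 lay on opposite sides of wild type in the libraries labelled JupLow and JupHigh, at log2 ratios of -0.34 (-0.65 to -0.02) and 0.45 (0.19 to 0.72). Each line has 1 library and both ratios share the wild-type control. The difference between the lines has no replicate check and was not tested. Without cells holding 3 or more endoderm UMIs, an alternative chosen after seeing the data, the JupLow ratio was -0.16 (-0.49 to 0.18). It also had an interval that includes 0 with a minimum of 2000 UMIs (-0.24, -0.57 to 0.10) and with TMM factors (-0.24, -0.55 to 0.07).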

How the results depend on the processing

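Of the bulk fold changes of members, 117 kept direction and side of the threshold under the alternatives, 10 lost the call, 4 gained it and 1 reversed. The number of members called (4) was 2 when reads were thinned to the shallowest library, which left 6 tested (32.5% of all genes were called there), and 1 with an absolute log2 fold change of at least 1, where 727 of all genes were called. Leaving out 1 library gave 3 to 5 members and 2361 to 2833 genes, and moved Jak1 between -0.34 and 0.18, positive without gel replicate 2. Same-numbered gel and plastic libraries did not deviate together (correlations of -0.05, 0.02 and 0.02). With a replicate block 4 members and 2988 genes were called. In single cells, of 405 member ratios under the alternatives 21 changed sign, 19 of them where the reported interval includes 0 (among these Lifr in 2i/LIF, 0.42 without endoderm-rich cells, and in gel Gbx2, 0.23, and Pim1, 0.30, with cells of at least 2000 UMIs). The other 2 were Lifr in JupLow over wild type (0.034 without endoderm-rich cells) and Pim3 in JupHigh over JupLow (0.019 with TMM factors). The median over members became -0.10 in 2i/LIF with TMM factors, which move the ratio of every gene in that comparison up by 0.25. Without endoderm-rich cells it became 0.59 in JupHigh over wild type, and the cause of that change was not tested. Shares of cells with any member depend on depth: thinned to 2000 UMIs they were 64.0% (wild type, serum/LIF), 63.4% (2i/LIF), 67.1% (JupLow) and 68.4% (JupHigh), with 42.2% of 45 cells in gel, and not thinned 66.9%, 60.1%, 63.0% and 64.3%, with 51.8% in gel. Leaving out the gel library took the range of Stat3 from 1.53 to 0.74. This alternative and leaving out endoderm-rich cells were chosen after seeing the data.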

Other observations

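Osm, the gene of oncostatin M, a cytokine that also signals through gp130, had 135 UMIs in the 2i/LIF library (16.3 CPM, interval 13.7 to 19.3). It had 0 UMIs in wild type in serum/LIF, 1 in gel, 0 in JupLow and 1 in JupHigh. With 3 UMIs (1.49 CPM) set as a floor for the count of 0 in wild type in serum/LIF, the lower limit in 2i/LIF lay 9.19-fold above it. The exact interval used elsewhere reaches above 3 UMIs for a count of 0, so with it the fold would be smaller. In the bulk libraries, all in 2i/LIF, it measured 28.2, 28.2 and 17.9 in gel and 22.0, 26.2 and 21.3 on plastic, with a limma adjusted p of 0.849. Osmr, a partner of gp130 in its receptor, had 0 to 3 UMIs in every library that lists it. Osm was singled out after its values were seen.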
